A study of Homo sapiens with 6 samples.

Results

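The genes described here are the hyaluronan synthases HAS1, HAS2 and HAS3, the hyaluronidases HYAL1, HYAL2 and HYAL3, the receptor CD44 and UGDH, which supplies a sugar precursor. They are 8 of the 56832 gene symbols in the deposited count table, each taken as the row that bears its symbol. HAS2 was picked for its large rise in the knockout, so its values in that comparison are a description and carry no test. The other 7 members are listed with it by name.

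Stranded libraries of polyadenylated RNA were made from HEK293T, a human embryonic kidney line that expresses the SV40 large T antigen. There were 3 libraries of SMARCA3 knockout cells (KO) and 3 of wild-type cells (WT), all grown in serum-supplemented medium, and SMARCA3 is the protein encoded by HLTF, a helicase and ubiquitin ligase. The labels do not say whether the knockout was 1 clone or whether replicates were separate cultures, so the p-values speak only of variation among these libraries, which could be technical. The design sets mRNA levels of the cells named as knockout beside those of wild-type cells.

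Hyaluronan is a long unbranched glycosaminoglycan of alternating glucuronic acid and N-acetylglucosamine. Unlike other glycosaminoglycans it is made at the plasma membrane, without a core protein, by synthases that extrude the growing chain, and UGDH makes the UDP-glucuronic acid they consume. Hyaluronidases and lysosomal exoglycosidases break it down, and CD44 is its best known surface receptor. Hyaluronan is abundant in embryonic and mesenchymal tissue, where HAS2 is the main synthase.

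Total counts were 33125811 to 36804337 in KO libraries and 38199454 to 41593655 in WT libraries, so each KO library was shallower than each WT library. HLTF mRNA was lower but present in the KO, at 141, 140 and 149 CPM (counts per 1000000 scaled counts of the library) against 215, 191 and 195 CPM in WT (edgeR adjusted p = 4.65e-05), and counts per gene do not show whether its sequence or protein was altered. Among 10 marker genes listed for this epithelial-like line, VIM and CDH2 were the most abundant per length and KRT19 had 0 counts. The list summed to 306 to 309 CPM in KO and 403 to 424 CPM in WT libraries. KRT8, KRT18, VIM, CDH1, CDH2 and EPCAM were called lower in KO, and LHX1 and NEFL were not called. PAX2 was called higher, with 10.8 ± 0.0636 CPM in KO and 4.52 ± 0.666 CPM in WT (SD, n = 3 each). The part of these markers and of depth in the results below was not tested. Fibroblasts make much hyaluronan, and the 8 fibroblast markers summed to 6.95 to 7.78 CPM in KO and 7.37 to 9.16 CPM in WT, with DCN and FAP at 0 and 7 of 8 under 1 CPM in every library. Endothelial markers summed to 0.299 to 0.818 CPM in KO and 0.539 to 0.577 CPM in WT, and leukocyte markers to 2.88 to 3.42 CPM in KO and 2.41 to 3.67 CPM in WT. In bulk RNA, more cells that express a gene and more RNA per cell cannot be told apart.

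HAS2 was the synthase that differed most between the groups. It had 51.5, 55.8 and 55.9 CPM in KO replicates 1 to 3, against 1.42, 1.23 and 1.23 CPM in WT replicates 1 to 3. All KO libraries were high, all WT libraries were low, and the groups lay far apart. The means were 54.4 ± 2.54 CPM in KO and 1.30 ± 0.110 CPM in WT (SD, n = 3 each), a ratio of 42.01 and a log2 fold change of 5.39 (SE 0.09). These rest on 5670 counts in KO and 154 counts in WT, well above the floor of 3 counts per library, which was 0.0815 to 0.0909 CPM in KO and 0.0723 to 0.0787 CPM in WT. By log2 fold change HAS2 stood at rank 9 from the top among 18061 tested genes, the measure it was picked on. The gene spans positions 121612116 to 121641390 of chromosome 8 (hg38, minus strand).

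HAS1 and HAS3 did not follow HAS2. HAS1, the least active of the synthases in most cells, had 0 counts in every library, so its level was under the floor. HAS1 spans positions 51713112 to 51723994 of chromosome 19 (minus strand). HAS3, which makes shorter chains in vitro, had 3.00, 3.18 and 2.51 CPM in KO and 4.19, 4.21 and 3.86 CPM in WT. Every KO library lay below every WT library. HAS3 averaged 2.90 ± 0.343 CPM in KO and 4.09 ± 0.200 CPM in WT (SD, n = 3 each), and it fell by 0.49 on the log2 scale (SE 0.12, edgeR adjusted p = 0.00907, all genes tested). HAS3 spans positions 69105564 to 69118719 of chromosome 16 (plus strand). Its exons overlap CHTF8 on the other strand by 365 bases, and CHTF8 had 94.8 ± 1.81 CPM in KO and 95.1 ± 2.25 CPM in WT (SD, n = 3 each). Of the 20 nearest tested genes around HAS3, 0 were called higher, 8 lower and 12 not called, with a median log2 fold change of -0.10. The shares over all tested genes were 14.0% called higher and 17.7% lower.

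The bases before the RefSeq start of HAS3 are shown because it was one of the members called lower. They are the RefSeq sequence of GRCh38.p14 at chr16:69107290-69107539 (plus strand), the 250 bases before that start, written 5′ to 3′. The window lies inside the GENCODE span given above, which begins further upstream. Capitals mark the GC box GGGCGG or its reverse complement CCGCCC, a motif bound by Sp1-family factors, searched on both strands.
HAS3: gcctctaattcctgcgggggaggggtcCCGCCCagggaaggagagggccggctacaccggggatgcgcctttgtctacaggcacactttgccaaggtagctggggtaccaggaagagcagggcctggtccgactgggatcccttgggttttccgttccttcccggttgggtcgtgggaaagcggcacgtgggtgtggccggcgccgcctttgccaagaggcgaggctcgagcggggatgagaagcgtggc
This window held 1 GC box, which overlapped no other, and it had a GC content of 66%. Of 35116 RefSeq promoter windows of that length, 42.6% held at least 1 GC box, and their median GC content was 58%. Promoter entries were matched for 7 of the 8 members, all but HAS2.

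**Figure D1:**
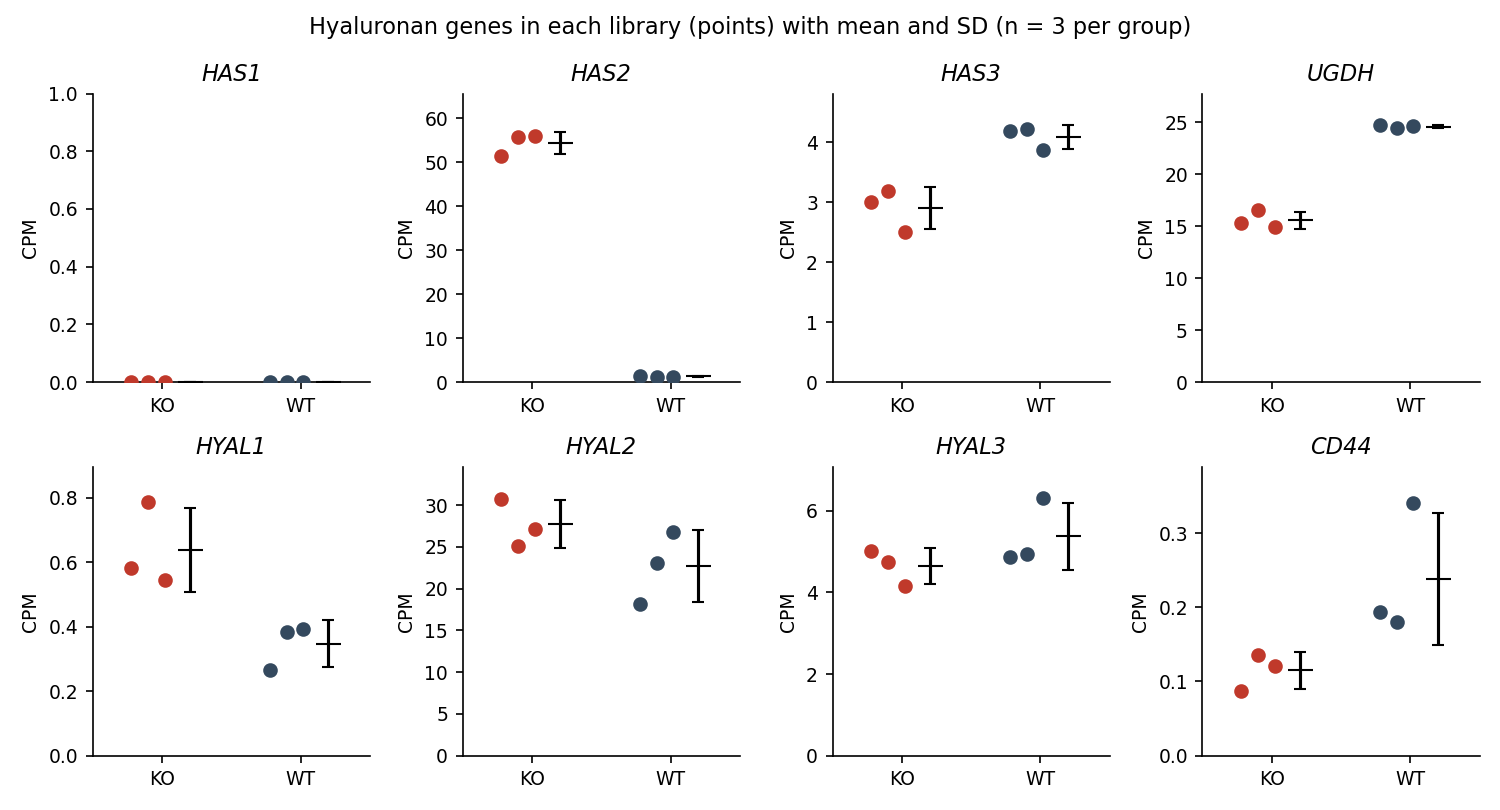
CPM (linear axes from 0, scales differ between panels) of each of the 8 genes in the 3 KO libraries (red, left) and 3 WT libraries (dark, right), with the mean and SD as a black bar. HAS2 lies at 51.5 to 55.9 CPM in KO and 1.23 to 1.42 CPM in WT, UGDH and HAS3 lie lower in every KO library, and HAS1 is at 0.

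Scaling each gene to its exon length allowed the synthases to be compared with each other. In units of CPM per kb of annotated exon, HAS2 measured 12.3, 13.3 and 13.3 in KO libraries and 0.339, 0.294 and 0.294 in WT libraries. HAS3 measured 0.567, 0.601 and 0.475 in KO and 0.793, 0.796 and 0.729 in WT. HAS3 was thus the more abundant synthase mRNA in each WT library and HAS2 in each KO library. HAS2 made up 96.0 ± 0.551% of the summed synthase level in KO and 28.6 ± 1.51% in WT (SD, n = 3 each). The sum itself was 13.5 ± 0.551 CPM per kb in KO and 1.08 ± 0.0557 CPM per kb in WT. As HAS2 was picked for its rise, its share and the sum largely restate that rise.

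**Figure D2:**
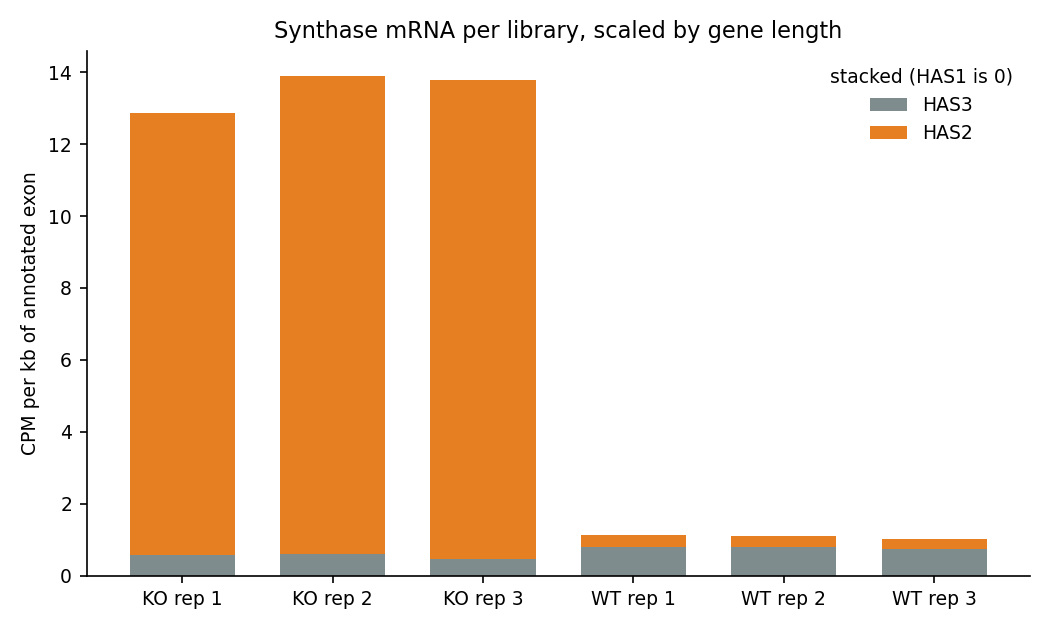
Stacked bars of HAS3 (grey) and HAS2 (orange) in CPM per kb of annotated exon for each library, KO on the left and WT on the right, with HAS1 at 0. The summed level averages 13.5 in KO and 1.08 in WT, and HAS2 forms nearly the whole bar in KO but the smaller part in WT.

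The order of length-scaled levels among the 8 members differed between the groups. In KO it ran HAS2, HYAL2, UGDH, HYAL3, HAS3, HYAL1, CD44 and HAS1. In WT it ran UGDH, HYAL2, HYAL3, HAS3, HAS2, HYAL1, CD44 and HAS1. Apart from HAS2, whose place restates the rise it was picked for, only UGDH and HYAL2 changed places. Ranges of genes next to each other in either order did not overlap, and the order was the same with the longest transcript as length. HAS2 stood at percentile 75.2 in KO and 11.9 in WT among tested genes with an annotated length, UGDH at 46.4 in KO and 56.3 in WT, and HYAL2 at 56.3 in KO and 51.7 in WT.

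Of the 8 members, 6 had enough counts to be tested, and HAS1 and CD44 did not. Of the 5 tested members other than HAS2, HYAL1 was called higher, HAS3 and UGDH were called lower, and HYAL2 and HYAL3 were not called. Over all 18061 tested genes 14.0% were called higher and 17.7% lower, or 31.8% in all, and the median log2 fold change was 0.0031. The CPM ranges of 3 of these 5 genes did not overlap between groups, 1 with KO above and 2 with KO below. Over all tested genes 45.6% had ranges apart, 21.2% with KO above and 24.4% with KO below. Calls and ranges apart were thus common among all genes. None of these 5 members was called with a difference of 1 or more on the log2 scale. Of all tested genes 5.09% were, with 1.55% higher in KO.

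UGDH, the dehydrogenase that oxidises UDP-glucose to UDP-glucuronic acid, fell most clearly among the other members. It had 15.3, 16.5 and 14.9 CPM in KO and 24.7, 24.4 and 24.6 CPM in WT. The groups did not overlap and the WT libraries were nearly equal. UGDH averaged 15.6 ± 0.835 CPM in KO and 24.55 ± 0.188 CPM in WT (SD, n = 3 each), and it fell by 0.66 on the log2 scale (SE 0.06, edgeR adjusted p = 2.49e-05). UGDH was thus lower in the libraries where HAS2 was higher. UGDH spans positions 39498755 to 39528311 of chromosome 4 (minus strand), and its neighbours LIAS and SMIM14 had log2 fold changes of 0.18 and 0.02 and were not called. Of its 20 nearest tested genes, 3 were called higher, 7 lower and 10 not called, with a median of 0.00042. Across all genes tested, 14.0% were called higher and 17.7% lower. Exons of UGDH overlap UGDH-AS1 on the other strand by 293 bases.

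Bases before the RefSeq start of UGDH, the other member called lower, are shown in the same way. They are the 71 bases at chr4:39527619-39527689 (GRCh38.p14, minus strand) that hold no annotated exon and end 179 bases before that start. They too lie inside the GENCODE span of the gene, which begins further upstream.
UGDH: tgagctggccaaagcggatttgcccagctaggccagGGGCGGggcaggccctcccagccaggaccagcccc
The full 250-base window held 2 GC boxes and had a GC content of 66%. Neither match overlapped the other, and 1 of them is in the bases shown.

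Most called enzymes around the UDP-sugar precursors were lower as well, by small amounts. Of 13 tested genes of UDP-sugar metabolism, 7 fell, 1 rose and 5 were not called. Among them are UXS1, which converts UDP-glucuronic acid to UDP-xylose, and the transporter SLC35D1. Their median log2 fold change was -0.19, also with no scaling factor, and -0.18 with RLE size factors. For this list and those below, the shares over all tested genes were 14.0% called higher and 17.7% lower. UGP2, which makes the UDP-glucose that UGDH uses, averaged 34.9 ± 1.04 CPM in KO and 42.3 ± 3.10 CPM in WT (SD, n = 3 each), and fell by 0.28 on the log2 scale (SE 0.06, edgeR adjusted p = 0.00673). PGM1, the phosphoglucomutase one step before it, averaged 70.4 ± 3.71 CPM in KO and 84.5 ± 2.12 CPM in WT and fell by 0.26 on the log2 scale. Hexokinase HK2 rose by 0.19 on the log2 scale, to 128 ± 0.743 CPM in KO against 112.5 ± 2.73 CPM in WT. The hexokinase HK1 went the other way, with 105.3 ± 2.11 CPM in KO and 124.3 ± 1.17 CPM in WT. Its log2 fold change was -0.24 (edgeR adjusted p = 0.000884). GFPT1 and GFPT2, which open the hexosamine branch, had log2 fold changes of -0.04 and -0.16 and were not called.

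The hyaluronidases HYAL1, HYAL2 and HYAL3 lie side by side on chromosome 3, between 50292831 and 50322906, all on the minus strand. HYAL2, a membrane-anchored enzyme that starts the breakdown of long chains, was the most abundant of the 3 per length. It had 30.8, 25.1 and 27.2 CPM in KO and 18.2, 23.1 and 26.8 CPM in WT. The highest WT library lay above the lowest KO library, so the groups overlapped. The log2 fold change was 0.29 (SE 0.12) and was not called (edgeR adjusted p = 0.104). It was called with DESeq2 (adjusted p = 0.0413), with no low-count filter (0.0029) and without WT replicate 3 (log2 fold change 0.43, adjusted p = 0.0105). Without WT replicate 1, the lowest WT library, HYAL2 was not called (log2 fold change 0.16, edgeR adjusted p = 0.15). Its adjusted p ran from 0.0029 to 0.251 among alternatives.

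HYAL1, the lysosomal enzyme that cuts hyaluronan into small fragments, was present at low counts. It had 20, 29 and 18 counts in KO and 11, 15 and 15 counts in WT, or 0.582, 0.788 and 0.545 CPM in KO and 0.265, 0.385 and 0.393 CPM in WT. All KO libraries lay above all WT libraries. HYAL1 rose by 0.89 on the log2 scale (SE 0.27, edgeR adjusted p = 0.0288). It reached the level of the low-count filter in 3 KO libraries but in only 2 WT libraries. With no low-count filter HYAL1 was called as well (log2 fold change 0.88, edgeR adjusted p = 0.0228). It did not pass a filter of at least 1 CPM in 3 libraries. The call was lost in 5 of 13 alternatives, with DESeq2 (adjusted p = 0.135), with the replicate block (0.0544) and without KO replicate 2 (0.133), WT replicate 1 (0.0844) or WT replicate 2 (0.0507). Its adjusted p lay between 0.0228 and 0.135 in all 13.

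HYAL3, whose own activity is weak, had 5.01, 4.75 and 4.15 CPM in KO and 4.87, 4.93 and 6.32 CPM in WT. The groups overlapped, and its log2 fold change of -0.21 (SE 0.13) was not called (edgeR adjusted p = 0.243). Without WT replicate 3 the log2 fold change was -0.07 (adjusted p = 0.699), within an adjusted p range of 0.131 to 0.699. Exons of HYAL3 overlap NAA80 by 248 bases and IFRD2 by 43 bases, and exons of HYAL2 overlap TUSC2 by 509 bases, in each case on the same strand, so reads in these parts cannot be assigned to 1 gene. Around HYAL2, 8 of the 20 nearest tested genes were called higher and 0 lower, with a median log2 fold change of 0.24, close to the 0.29 of HYAL2. HYAL1 and HYAL3 are among these 20. By comparison, 14.0% of all tested genes were called higher and 17.7% lower.

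Enzymes outside this cluster were mixed. Of 5 tested genes among other depolymerases and lysosomal exoglycosidases, 2 rose, 1 fell and 2 were not called, with a median log2 fold change of 0.05. HEXA, a lysosomal enzyme subunit that helps remove N-acetylglucosamine from chain ends, rose to 28.7 ± 1.47 CPM in KO against 23.0 ± 0.535 CPM in WT (SD, n = 3 each, edgeR adjusted p = 0.00245). Exons of HEXA overlap the protein-coding gene AC009690.1 on the same strand by 617 bases, where reads cannot be assigned to 1 gene, and AC009690.2 and HEXA-AS1 on the other strand by 1273 and 364 bases. CEMIP, a hyaluronan-binding protein needed for depolymerisation in skin fibroblasts, rose by 0.40 on the log2 scale, but its call was lost in 6 of 14 alternatives (edgeR adjusted p = 0.0219, range 0.0158 to 0.115). Among those were the fits without KO replicate 1 (0.0650), KO replicate 2 (0.0679) and WT replicate 2 (0.0517). TMEM2 (CEMIP2), a surface protein related to CEMIP, had a log2 fold change of -0.16 and was not called, and the sperm enzyme SPAM1 had 0 counts in every library.

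CD44 mRNA was close to the limit of detection in both groups. It had 3, 5 and 4 counts in KO libraries and 8, 7 and 13 counts in WT libraries, or 0.0874, 0.136 and 0.121 CPM in KO and 0.193, 0.180 and 0.341 CPM in WT. The KO libraries were all below the WT libraries, but CD44 did not pass the low-count filter and was not tested. With no filter its log2 fold change was -1.02 (SE 0.51, edgeR adjusted p = 0.190). At 12 counts in KO and 28 counts in WT, a difference was not detectable at this depth by that test. CD44 spans positions 35138870 to 35232402 of chromosome 11 (plus strand), and counts per gene do not separate its splice forms.

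Of 7 other hyaluronan receptors, 4 were tested and LYVE1, TLR2 and TLR4 were not, TLR2 and TLR4 having 0 counts in every library. LAYN (layilin), a C-type lectin membrane protein, fell to 2.71 ± 0.284 CPM in KO against 10.1 ± 0.288 CPM in WT (SD, n = 3 each), a log2 difference of -1.90 (SE 0.10) with an edgeR adjusted p of 2.54e-07. STAB1, a scavenger receptor of the stabilin family, had 14, 12 and 12 counts in KO and 5, 4 and 7 counts in WT. It passed the low-count filter through the KO libraries alone, so no test is given. HMMR, a hyaluronan-binding protein that also works at the mitotic spindle, had 69.1 ± 5.58 CPM in KO and 75.3 ± 7.37 CPM in WT and was not called.

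The proteins that link CD44 to actin or cut it from the surface were also split. Of 7 tested, 2 rose, 2 fell and 3 were not called. Moesin (MSN) fell to 134 ± 1.66 CPM in KO against 192 ± 3.93 CPM in WT (SD, n = 3 each), a log2 difference of -0.52 (SE 0.04) with an edgeR adjusted p of 2.41e-06. Ezrin (EZR), of the same linker family, rose by 0.25, and the related tumour suppressor merlin (NF2) by 0.22 on the log2 scale. The sheddase ADAM17 was called lower (log2 fold change -0.16, edgeR adjusted p = 0.0436), a call lost in 10 of 14 alternatives (range 0.0392 to 0.227). These include the fits without KO replicate 1 (0.227), KO replicate 3 (0.142), WT replicate 1 (0.0726), WT replicate 2 (0.145) and WT replicate 3 (0.0711). With RLE size factors ADAM17 was not called either, which left 1 lower in this list.

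Of 19 hyaluronan-binding matrix proteins 11 were tested, of which 2 rose, 4 fell and 5 were not called. Aggrecan (ACAN) and neurocan (NCAN), proteoglycans that bind hyaluronan through link domains, rose and were scarce in both groups. ACAN had 1.12 ± 0.392 CPM in KO and 0.437 ± 0.0914 CPM in WT, and NCAN 1.76 ± 0.451 CPM in KO and 0.714 ± 0.141 CPM in WT (SD, n = 3 each). Their log2 fold changes were 1.34 and 1.30 (edgeR adjusted p = 0.00501 and 0.00155). The pentraxin PTX3 reached the level of the low-count filter in 3 WT libraries but in only 2 KO libraries. It had 31 counts in KO and 105 counts in WT and a log2 fold change of -1.56. The link protein HAPLN3 had one of -0.37, a call lost in 4 of 14 alternatives (edgeR adjusted p = 0.0155, range 0.0141 to 0.0677), among them the fits without KO replicate 1 (0.0570), KO replicate 2 (0.0577) and WT replicate 3 (0.0553). Versican (VCAN), a large matrix proteoglycan, had 65.1 ± 2.78 CPM in KO and 74.9 ± 8.59 CPM in WT and was not called (edgeR adjusted p = 0.0609). C1QBP, a mainly mitochondrial protein that binds hyaluronan, fell to 584 ± 14.7 CPM in KO against 745 ± 11.6 CPM in WT (edgeR adjusted p = 3.80e-05). TNFAIP6, which transfers heavy chains onto hyaluronan, had 0 counts in every library.

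The enzymes that build the other glycosaminoglycans gave a comparison with the synthases. Of 18 polymerases and linkage enzymes, all tested, 4 rose, 3 fell and 11 were not called, with a median log2 fold change of 0.03. In all, 38.9% of this list were called, near the 31.8% of all tested genes. XYLT1, a xylosyltransferase that starts chains on core proteins, rose to 11.1 ± 0.810 CPM in KO against 3.79 ± 0.312 CPM in WT (SD, n = 3 each), a log2 difference of 1.55 (SE 0.10) with an edgeR adjusted p of 9.18e-07. The glucuronyltransferases B3GAT1 and B3GAT2, best known for the HNK-1 carbohydrate, moved apart, with log2 fold changes of 1.23 and -0.998. Exons of B3GAT2 overlap SMAP1 on the other strand by 2267 bases, and those of ADAM17 overlap IAH1 by 1323 bases. The chondroitin synthase CHSY3 had a log2 fold change of -0.61. No gene in this list had a log2 fold change above 1.55, whereas that of HAS2, picked for its size, was 5.39.

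Over the 7 pathway lists together, 69 genes were tested, of which 16 were called higher, 19 lower and 34 not called, or 50.7% called against 31.8% of all tested genes. Calls were more frequent among abundant genes, at 36.9% of the 9571 tested genes that averaged 10 CPM or more. Of the 49 pathway genes at that level 46.9% were called. Of the 16 called higher, STAB1 and HAS2AS passed the low-count filter through the KO libraries alone. Their calls are counted in the 50.7% but carry no test. Of the 19 called lower, PTX3 reached the filter's level in 3 WT libraries but in only 2 KO libraries. As the lists were chosen with earlier results of these data known, these shares are a description. The median log2 fold change over the 69 genes was -0.04.

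**Figure D3:**
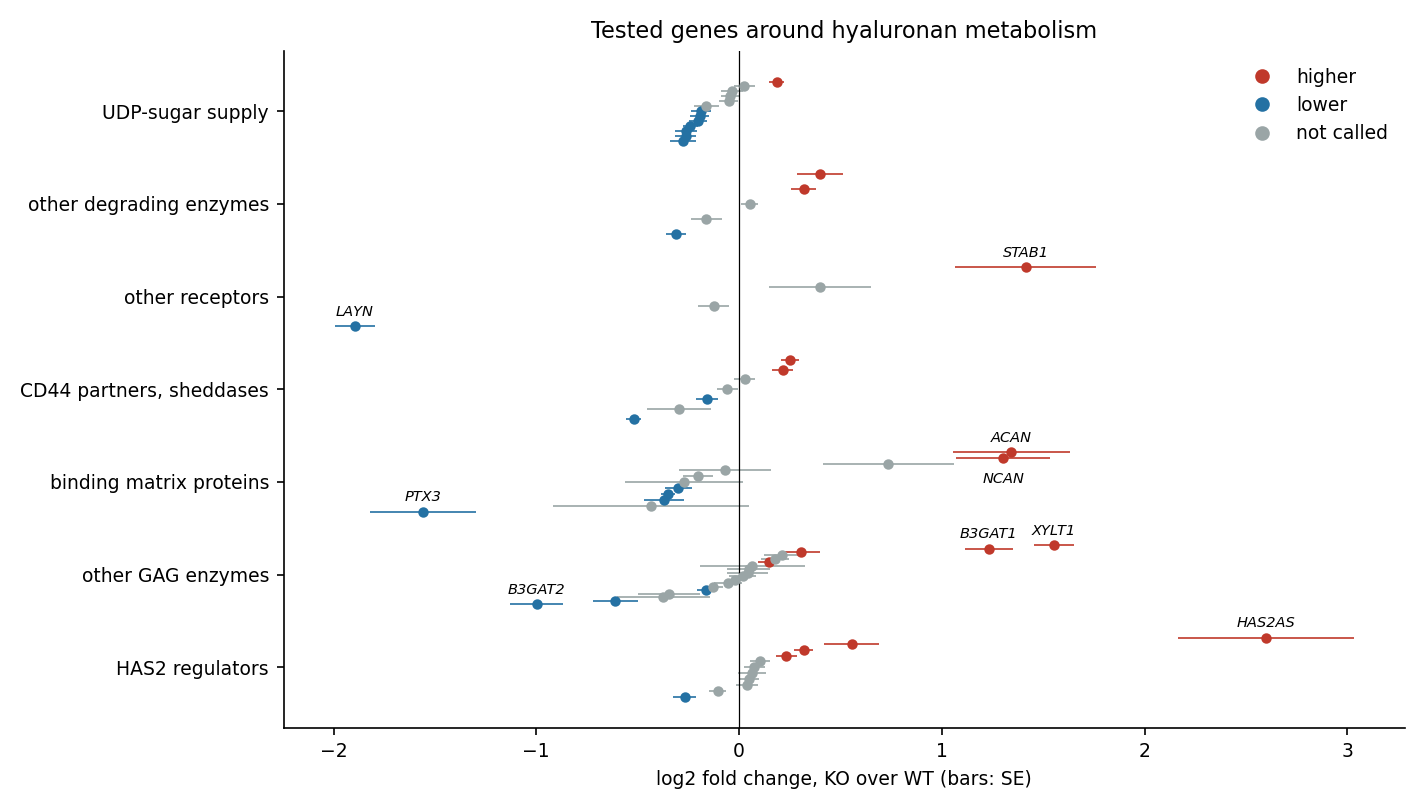
Log2 fold change of KO over WT with its SE for the 69 tested genes of 7 lists around hyaluronan metabolism, 1 row per list, coloured by whether a gene was called higher (red), lower (blue) or not called (grey). UDP-sugar supply has 7 genes lower and 1 higher within a narrow span, and genes with the widest shifts, such as HAS2AS at 2.60 and LAYN at -1.90, lie in other lists.

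Among 11 factors described as regulators of HAS2, 4 were called higher, 1 fell and 6 were not called. HAS2AS is counted among the 4, but it passed the low-count filter through the KO libraries alone, so its call carries no test. The transcription factors SP1, SP3, RELA and CREB1 were not called, with log2 fold changes of 0.05 for SP3 to 0.10 for SP1. STAT3 rose by 0.32, and the retinoic acid receptor gene RARA by 0.56 on the log2 scale, to 21.3 ± 2.21 CPM in KO against 14.5 ± 3.08 CPM in WT (SD, n = 3 each, edgeR adjusted p = 0.0101). Exons of RARA overlap RARA-AS1 on the other strand by 556 bases. PRKAA1 and PRKAA2 encode the catalytic subunits of AMPK, a kinase that acts on the HAS2 protein, and had log2 fold changes of 0.23 and -0.27, both called. OGT, which adds O-linked N-acetylglucosamine to proteins, and MGEA5 (OGA), which removes it, were not called.

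The antisense transcript HAS2AS (HAS2-AS1) had 0.291, 0.353 and 0.485 CPM in KO and 0.0482, 0.0770 and 0.0525 CPM in WT, and every KO library lay above every WT library. Counts were 10, 13 and 16 in KO and 2, 3 and 2 in WT, at or under the floor, and the low-count filter was passed through the KO libraries alone, so no test is given. Exons of HAS2 and HAS2AS overlap by 201 bases on opposite strands. Although the library kit keeps strand, no source used here gives the setting of the counting, and reads of the 2 genes may have been mixed.

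Around HAS2 calls went both ways. Of the 20 nearest tested genes on chromosome 8, 2 were called higher, 6 lower and 12 not called, with a median log2 fold change of 0.02, also with 5 in place of 10 genes on each side. Over all tested genes 14.0% were called higher and 17.7% lower. The nearest tested genes that do not overlap HAS2 are far off. SNTB1, a syntrophin, lies 798.8 kb before it in the coordinates and fell by 0.92 on the log2 scale (SE 0.10, edgeR adjusted p = 5.27e-05), to 5.85 ± 0.649 CPM in KO against 11.0 ± 0.837 CPM in WT (SD, n = 3 each). ZHX2, a transcription factor, lies 1140 kb after it and had 22.2 ± 0.641 CPM in KO and 21.8 ± 1.38 CPM in WT. Beside HAS2AS, the other gene called higher was FAM83A, 1538 kb away, with 1.22 ± 0.168 CPM in KO and 0.0774 ± 0.0535 CPM in WT. Both passed the low-count filter through the KO libraries alone. Among those called lower, MAL2 reached the filter's level in 3 WT libraries but in only 1 KO library.

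**Figure D4:**
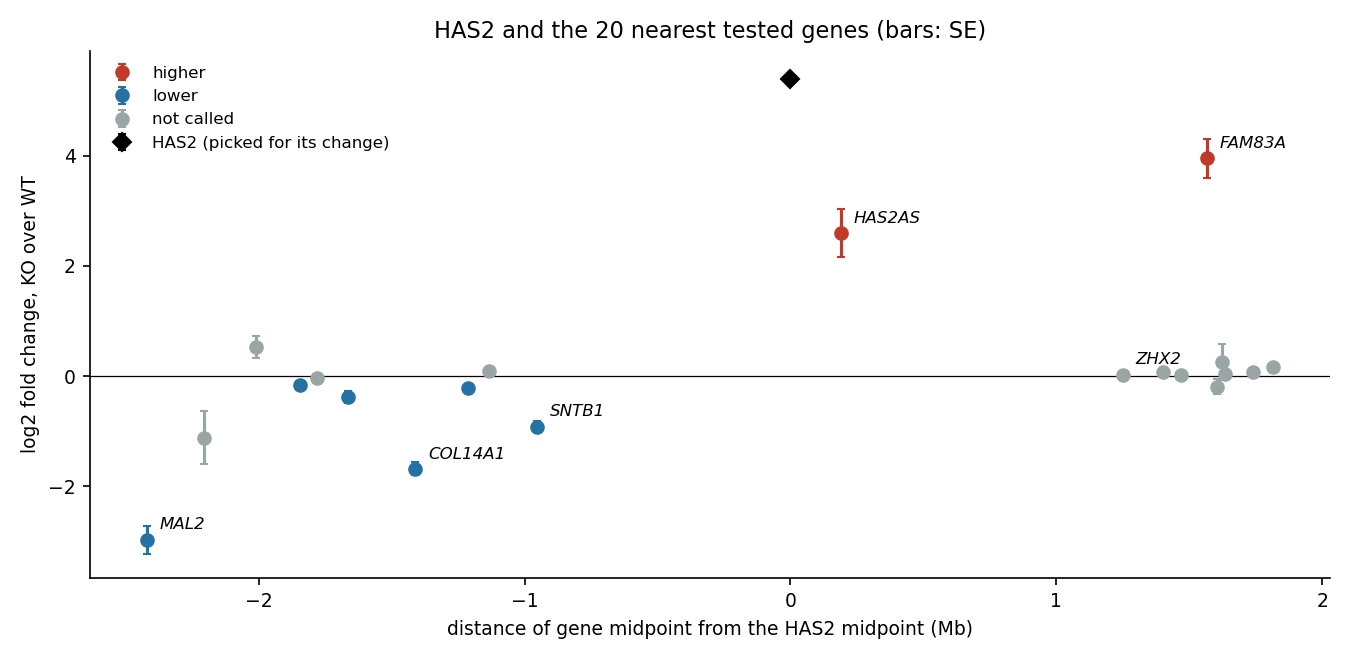
Log2 fold change of KO over WT with its SE for HAS2 (black diamond) and its 20 nearest tested genes, against the distance of their midpoints in Mb, coloured by call. HAS2 at 5.39 stands above flanking genes whose median is 0.02, and SNTB1, the nearest on the left, lies at -0.92.

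A few genes elsewhere had a library pattern close to that of HAS2. Likeness was the root mean square difference of log2 CPM, with a prior count of 2 and centred on each gene, over the 6 libraries. The prior shrinks the step of genes with few counts, so the measure depends in part on level. The 5 nearest were FLRT2 (0.159), ADGRD1 (0.369), RP11-76C10.5 (0.371), RP11-76C10.6 (0.402) and FABP6 (0.464). FLRT2, an adhesion protein of axon guidance on chromosome 14, had 19.0, 20.5 and 19.1 CPM in KO and 0.434, 0.359 and 0.525 CPM in WT, a ratio of means of 44.5. FABP6, a bile acid binding protein on chromosome 5, had 3.96, 4.05 and 4.58 CPM in KO and 0.145, 0.154 and 0.131 CPM in WT, a ratio of 29.3. All 5 were high in every KO library and low in every WT library, as the measure requires.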

How the data were processed

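RNA was measured in 3 SMARCA3 knockout and 3 wild-type HEK293T libraries. The authors deposited raw counts per symbol, whole numbers without normalization, in a column for each library. Trim Galore, STAR 2.4, Picard, HTSeq 0.9.1, DESeq2 and hg38 are named with no role or order, per the submitters' processing notes, while the annotation used for counting and its strand setting were not given in the sources used here. Columns were assigned by the names in the labels, and 0 rows named no gene.

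The test was edgeR 4.0.16 under R 4.3.3 (filterByExpr, TMM, quasi-likelihood F test, two-sided, Benjamini-Hochberg over 18061 genes, threshold 0.05), with 10 counts at the median depth as the filter's level, and "called" means past that threshold. CPM are counts per 1000000 TMM-scaled counts. SE is the log2 fold change divided by the root of F. The procedure was tested on simulated data with known changes. The floor covers counting error only. Spread between replicates exceeded sampling error (chi-square over degrees of freedom 3.62 to 15.5), so 6 libraries were counted. The highest values, 9.94 and 15.5, were those of WT replicate 1 against WT replicates 2 and 3, and other pairs gave 3.62 to 5.76. Without WT replicate 1, 6156 genes were called.

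Lengths and positions are from GENCODE 29 on hg38, matched by symbol or RefSeq synonym for 80.1% of tested genes. Exon length is the union over transcripts. Members and lists were chosen with earlier results of these data known. The text names the 8 members, HLTF, up to 2 called genes per list and direction by log2 fold change, the nearest neighbours and the 5 nearest patterns, and other genes were picked after their values were seen. One gene chosen by the rule is left out. Alternatives were RLE factors, library totals only, no filter, at least 1 CPM in 3 libraries, DESeq2 1.42.0, limma-voom (limma 3.58.1), robust dispersion, the replicate block, and each library left out.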

Additional observations from a re-analysis of the deposited data

How the results depend on the processing

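Of the 6 tested members, HAS3, HYAL3 and UGDH kept their direction and their side of the threshold under all 14 alternatives, with adjusted p up to 0.0422 for HAS3 and 0.00105 for UGDH and from 0.131 to 0.699 for HYAL3. The log2 fold change of HAS2 lay between 5.36 and 5.47, the highest without WT replicate 1. The log2 fold change of HYAL1 was 0.90 with DESeq2 and 0.88 with the replicate block, where it was not called, and 0.70 to 0.99 with single libraries left out. That of HYAL2 was 0.28 with no low-count filter and 0.30 with DESeq2, where it was called, and 0.16 to 0.43 with single libraries left out. The cause was not tested, and HYAL1 did not pass the filter of at least 1 CPM in 3 libraries. For the pathway genes named by rule, 297 such refits kept direction and call, 21 lost the call and 0 reversed. The share of HAS2 among synthases was 95.0% in KO and 24.2% in WT with the longest transcript as length, which follows from the shorter length given to HAS3, and 95.7 to 96.2% in KO and 27.9 to 29.4% in WT with a library left out. Calls over all genes ran from 4232, with the replicate block, to 6213 and over pathway genes from 28 to 38, and no count moved by over 1.5 times. Same-numbered libraries did not deviate together (correlations of -0.226 to -0.0144) and 0 of 6 libraries correlated best with its own number, so the replicate block pairs libraries that share only a number. Low counts limit HAS1, CD44, HYAL1 and HAS2AS.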
